A study of Mus musculus with 6 samples.

Results

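The genes described here are the semaphorins, plexins and neuropilins of mouse vagal sensory ganglia, together with both plexin domain containing genes. The gene family was chosen with earlier results of these data known. Its members were then taken by gene symbol alone, which gave 33 of the 32719 genes counted. They are 7 secreted class 3 semaphorins, 13 membrane-bound semaphorins, 2 neuropilins, 9 plexins, and Plxdc1 and Plxdc2. The RNA came from jugular-nodose ganglia, where vagal afferent neurons have their somata, of wild-type male C57BL/6J mice whose age no label gives. By their titles 3 libraries are controls and 3 are treated. According to the protocol, osmotic pumps under the skin delivered PBS or, in PBS, S961, a peptide that blocks the insulin receptor, at 10 nmol per week over 2 weeks. The treatment label names S961 for all 6 libraries, so the titles and the protocol alone tie the control group to PBS. Nothing in the labels says whether replicates were separate animals or pools, so p-values measure the spread between these samples, which may be technical.

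Semaphorins are guidance proteins that steer growing axons and also act on vessels and immune cells. The secreted class 3 members bind neuropilins, which lend ligand affinity to a complex whose signalling partner is usually an A-type plexin. Membrane-bound semaphorins bind plexins directly, and plexins carry a cytoplasmic domain that switches off small GTPases of the Ras and Rap families and so loosens adhesion and the actin skeleton. In sensory ganglia the system is best known for shaping where afferent axons grow in development and for being active again when axons are injured.

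The libraries held between 12898607 and 33522486 gene counts. Treated replicate 3, the smallest, stood apart: its correlations with the other libraries across 12197 genes were 0.920 to 0.944, against 0.968 to 0.989 among the rest, where genes are not independent replicates. The source label of the libraries reads spinal cord, but nodose neuron markers summed to between 466 and 1310 CPM (counts relative to the library's scaled total). Oligodendrocyte and astrocyte markers summed to between 29.8 and 34.7 CPM. Of the oligodendrocyte markers, Mog was at 0 counts in 5 of 6 libraries. Mobp and Olig2 had at most 5 counts a library, and Opalin had at most 16, in treated replicate 3. In treated replicate 3 the summed markers of fat cells reached 445 CPM, those of macrophages 345 CPM, of neutrophils 35.6 CPM, of fibroblasts 2160 CPM and of pericytes and smooth muscle 220 CPM. The other 5 libraries had at most 48.3, 93.7, 9.46, 1142 and 155 CPM for these lists. Summed markers of neurons were lowest in treated replicate 3, at 3873 CPM, against 4712 to 5083 CPM elsewhere, although Rbfox3 of that list was highest there. Nodose markers were lowest there too, and so were those of sympathetic neurons and glomus cells, at 126 CPM against 195 to 241 CPM. Jugular markers were highest there, at 652 CPM. Small RNA took 11.3% of the counts of treated replicate 3, against 4.42% to 7.05% in the others. In tissue RNA of this kind, fewer cells of a type and less RNA per cell cannot be told apart.

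Setting treated against control ganglia addresses whether transcripts of this guidance system differ after infusion of the insulin receptor antagonist. All 33 genes had enough counts to be tested. None passed an edgeR adjusted p of 0.05, and across all 16019 genes tested 0 passed, with 1068 at an unadjusted p under 0.05. The DESeq2 Wald test passed 89 genes, limma-voom 0, and limma-voom with sample weights 8. At an unadjusted p under 0.05 stood 4 of the 33 genes (12.1%), against 6.67% of all genes tested: Sema6a and Plxnc1 higher in treated ganglia, Sema5a and Sema3d lower. All 3 treated libraries lay on 1 side of all 3 controls for 7 of the 33 (21.2%), against 14.7% of all genes tested. Those were the same 4 genes with Sema3a above and Sema3c and Sema4d below the controls. The median log2 fold change of the 33 was 0.18, with 23 positive and 10 negative values, against 0.02 over all genes tested, of which 52.8% were positive. Since the family was chosen with earlier results of these data known, these comparisons with all genes only describe the values. The median of the 33 was 0.03 without treated replicate 2, 0.07 without control replicate 3, 0.09 without control replicate 1 and 0.29 without control replicate 2.

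**Figure D1:**
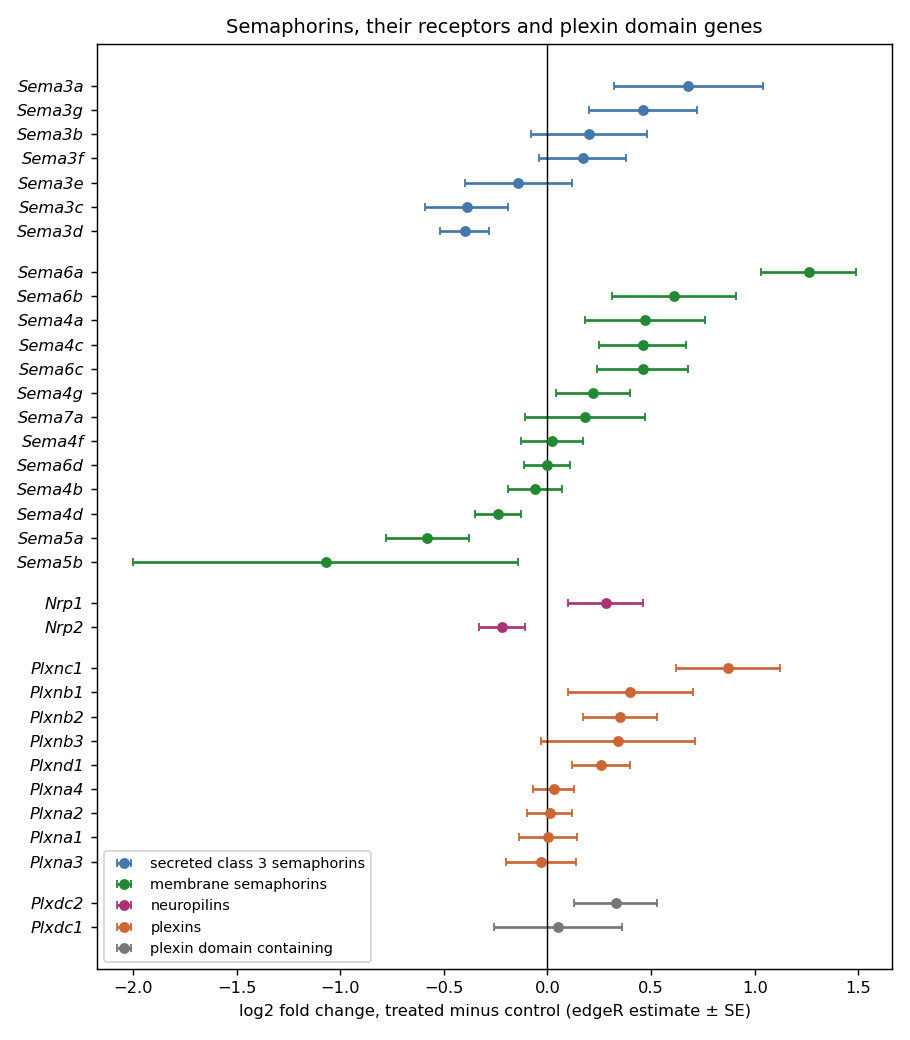
Log2 fold change of each of the 33 genes (x axis, treated minus control, edgeR estimate with its SE as the bar), grouped by role. Sema6a at 1.26 and Plxnc1 at 0.87 lie farthest to the right, Sema5b at -1.07 lies farthest to the left with the longest bar, Sema5a at -0.58 and Sema3d at -0.40 lie to the left with shorter bars, and the 4 A-type plexins sit near 0.

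Counts were also divided by exon length, since levels of different genes compare only per length. In control ganglia the highest of the 33 per kilobase of exon was Nrp2, a neuropilin that binds Sema3c and Sema3f among others, at 22.7 ± 2.10 CPM per kb (SD, n = 3). Below it stood Sema3c at 18.6 ± 1.91, the receptor Plxna4 at 18.2 ± 0.712, the Sema3e receptor Plxnd1 at 16.9 ± 3.20, Sema6d at 15.9 ± 0.931 and Sema5a at 15.7 ± 0.419 CPM per kb. From Sema3c to Sema5a the SD ranges of neighbours in that order overlapped, whereas those of Nrp2 and Sema3c did not. At the other end Sema3a had 0.0855 ± 0.00256 and Sema5b 0.187 ± 0.0485 CPM per kb. With the longest transcript as the length, 5 of the 6 highest genes were shared, Sema5a moved up to the place after Nrp2, and Nrp1 went from 5.90 to 15.8 CPM per kb. In treated ganglia the means of Plxnc1 at 20.6 ± 6.73 and Plxnd1 at 20.3 ± 1.51 CPM per kb stood above that of Nrp2 at 19.4 ± 1.77, within its SD range.

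**Figure D2:**
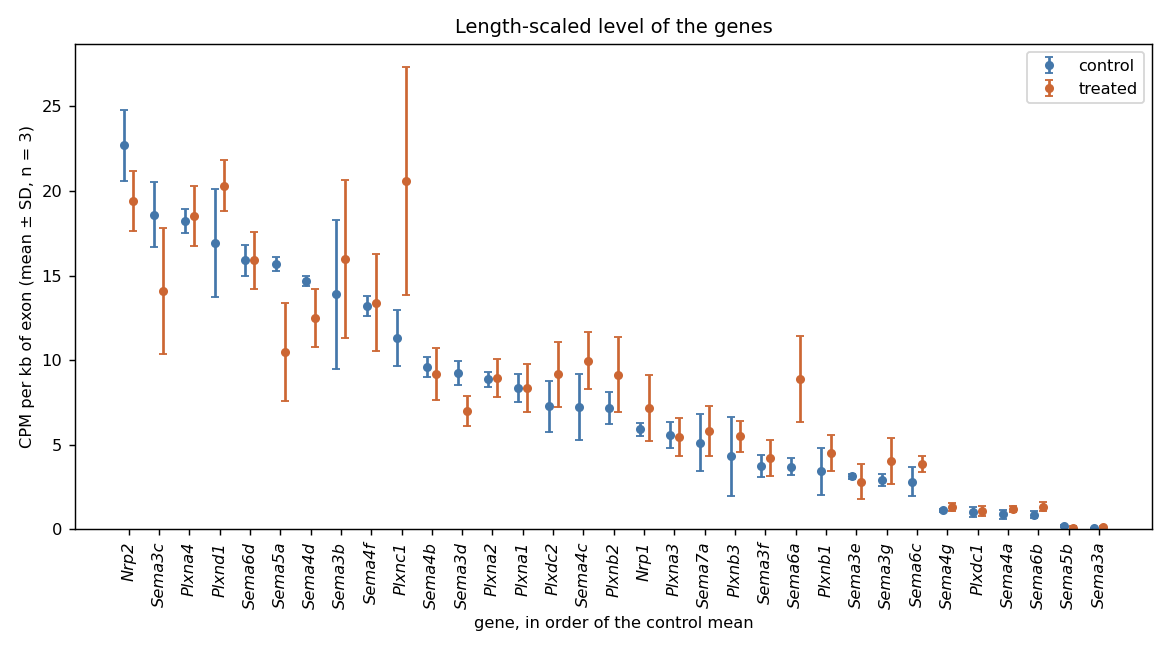
Length-scaled level of the 33 genes (y axis, CPM per kb of exon, mean with SD over 3 libraries) in control and treated ganglia, in order of the control mean. Nrp2 is first among controls at 22.7 and Sema3a last at 0.0855, and the treated means of Plxnc1 and Sema6a stand well above their control means.

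Among the membrane-bound semaphorins, Sema6a had the largest positive log2 fold change of the 33. Sema6a is a transmembrane ligand of plexin A2 and plexin A4. The gene (ENSMUSG00000019647) lies on the minus strand of chromosome 18, 47235598 to 47368870 in GRCm38. It stood at 29.8, 37.8 and 29.9 CPM in control replicates 1, 2 and 3 and at 52.8, 95.6 and 85.3 CPM in treated replicates 1, 2 and 3. Every treated library was above every control, with treated replicate 1 the nearest to them. The means were 32.5 ± 4.60 and 77.9 ± 22.3 CPM (SD, n = 3). The log2 fold change was 1.26 ± 0.23 (SE), 2.39-fold, with rank 24 by p among all genes tested, an edgeR unadjusted p of 7.80e-04 and an edgeR adjusted p of 0.519. The exact permutation p was 0.1, the smallest that 3 libraries against 3 allow. DESeq2 gave an adjusted p of 8.56e-05 and edgeR without treated replicate 1 an adjusted p of 0.0338, while over all 17 alternatives the adjusted p ran from 8.56e-05 to 0.995 and the log2 fold change from 1.07 to 1.46.

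Among the treated libraries Sema6a had the same order as the summed nerve injury genes, and among the controls it did not. That list has 12 genes, among them the transcription factors Atf3 and Jun. Of the 12, 10 had an edgeR unadjusted p under 0.05 and a higher level in treated ganglia. Such a p was found for 6.67% of all genes tested. The list was chosen with earlier results of these data known, so its count is not an independent result. Npy alone was at 0 in a library, treated replicate 1. The list summed to 409, 406 and 411 CPM in controls, against 578, 868 and 755 CPM in treated libraries. Gap43, which was not among those 10, gave 231, 220 and 241 CPM of this in controls. In treated libraries it gave 234, 257 and 183 CPM. The controls thus lay close together on a sum in which Gap43 weighed most. Sema6a was highest of the controls in control replicate 2, where that sum and Gap43 were lowest of the controls. Per 100 CPM of the injury list, Sema6a stood at 7.28, 9.32 and 7.26 CPM in controls, against 9.14, 11.0 and 11.3 CPM in treated libraries, where control replicate 2 lay above treated replicate 1. Since Gap43 holds much of the list sum, this ratio does not set Sema6a against the injury genes that were higher in treated ganglia. The part of the injury genes in the Sema6a difference was not tested. Of the receptors of Sema6a, Plxna2 was at 0.01 ± 0.11 and Plxna4 at 0.03 ± 0.10 (log2 fold change ± SE).

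Sema5a, which carries thrombospondin repeats beside its semaphorin domain and is a ligand of A-type plexins, had the highest mean count of the 33 in the controls. It lies on chromosome 15, 32244810 to 32696341, plus strand. Its level was 297, 285 and 301 CPM in controls, against 237, 218 and 135 CPM in treated replicates 1, 2 and 3. The groups did not overlap, and treated replicate 3 was lowest. Sema5a had a log2 fold change of -0.58 ± 0.20 (SE), an edgeR unadjusted p of 0.0197 and an adjusted p of 0.696. Without treated replicate 3 the log2 fold change was -0.37. The 9 nodose neuron markers, of which 8 had a negative log2 fold change, summed to 1310, 1231 and 1268 CPM in controls, against 952, 982 and 466 CPM in treated libraries. Htr3a weighed most in that sum, with 478, 423 and 451 CPM in controls, against 292, 240 and 93.5 CPM in treated libraries. P2rx3 had 210, 199 and 196 CPM in controls, against 216, 256 and 149 CPM in treated libraries. Per 100 CPM of these markers Sema5a stood at 22.6, 23.2 and 23.7 CPM in controls, against 24.9, 22.2 and 29.0 CPM in treated libraries, so on that scale the groups overlapped. The part of nodose neurons in the Sema5a difference was not tested.

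Sema4d, a ligand of plexin B1 that also acts in immune cells, stood at 112, 116 and 112 CPM in controls, against 108, 96.1 and 82.3 CPM in treated libraries. The controls lay close together and all treated libraries were below them, at a log2 fold change of -0.24 ± 0.11 (SE) and an edgeR unadjusted p of 0.0637. Without treated replicate 3 it was -0.14. Sema6d, a high-level ligand of plexin A1, stood at 164, 179 and 161 CPM in controls, against 180, 176 and 147 CPM in treated libraries, with means of 168 ± 9.83 and 168 ± 17.9 CPM (SD, n = 3). Its log2 fold change was -0.003 ± 0.11. Sema4f at 0.02 ± 0.15 and Sema4b at -0.06 ± 0.13 also lay within 1 SE of 0, as did Sema7a at 0.18 ± 0.29.

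Of the remaining membrane semaphorins, Sema4c, a plexin B2 ligand, was at 0.46 ± 0.21 (log2 fold change ± SE), Sema6c at 0.46 ± 0.22, Sema6b at 0.61 ± 0.30, Sema4a at 0.47 ± 0.29 and Sema4g at 0.22 ± 0.18. In each of these 5 genes at least 1 treated library lay within the range of the controls. For Sema4c that was treated replicate 1, at 37.0 CPM, below control replicate 2 at 43.5 CPM. Without control replicate 2 the log2 fold change of Sema4c was 0.70, that of Sema6c 0.74 and that of Sema4a 0.73. Without control replicate 1 Sema6c was at 0.30 and Sema4a at 0.26, and without treated replicate 2 Sema4g was at 0.03. A transcript of the other strand, D430040D24Rik, covers 7.27% of the exon sequence of Sema4c. Sema5b was near the detection limit, with 22, 44 and 15 counts in controls, against 13, 40 and 0 in treated replicates 1, 2 and 3. The 0 allows up to 0.239 CPM in that library, counting error only, against 1.01 to 1.69 CPM in the controls and 1.39 CPM in treated replicate 2. The fitted log2 fold change of Sema5b was -1.07 ± 0.93 (SE), and leaving out 1 library moved it to between -2.48 (treated replicate 2 out) and -0.60 (treated replicate 3 out).

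The 7 secreted class 3 semaphorins had 4 positive and 3 negative log2 fold changes. Sema3d and Sema3c, which signal through neuropilins in the heart, vessels and nerves of the embryo, were lower in every treated library. Sema3d (chromosome 5, 12383385 to 12588948, plus strand) stood at 78.8, 73.7 and 85.7 CPM in controls, against 63.9, 64.9 and 51.2 CPM in treated libraries. The log2 fold change of Sema3d was -0.40 ± 0.12 (SE), 1.32-fold lower, at an edgeR unadjusted p of 0.00897 and an adjusted p of 0.655. It kept an unadjusted p under 0.05 in all 17 alternatives, with log2 fold changes from -0.47 to -0.30 and adjusted p from 0.225 to 0.995. Per 100 CPM of nodose markers Sema3d stood at 6.02, 5.99 and 6.76 CPM in controls, against 6.72, 6.61 and 11.0 CPM in treated libraries, again with overlap. The part of nodose neurons in the Sema3d difference was not tested.

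Sema3c had 130, 121 and 148 CPM in controls, against 117, 116 and 70.0 CPM in treated replicates 1, 2 and 3. Treated replicates 1 and 2 lay just under the lowest control, and treated replicate 3 far below it. The log2 fold change was -0.39 ± 0.20 (SE) and -0.19 without treated replicate 3. Sema3a, the prototype repellent of sensory axons, was at a low level: 20, 31 and 18 counts in controls, against 53, 60 and 26 in treated libraries. In CPM these were 1.15, 1.19 and 1.22 against 1.58, 2.09 and 2.07, at a log2 fold change of 0.68 ± 0.36 (SE) and an edgeR unadjusted p of 0.0986. The remaining 4 overlapped between groups. Sema3g, a vascular ligand, was at 0.46 ± 0.26, Sema3b at 0.20 ± 0.28, Sema3f at 0.17 ± 0.21 and Sema3e at -0.14 ± 0.26 (log2 fold change ± SE). Sema3g was at 0.24 without treated replicate 3 and at 0.70 without treated replicate 1.

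The neuropilins had log2 fold changes of opposite sign. Nrp1, which binds Sema3a and the growth factor VEGF-A, stood at 53.6, 59.3 and 60.2 CPM in controls, against 59.8, 58.6 and 92.1 CPM in treated replicates 1, 2 and 3. Only treated replicate 3 was outside the control range. Its log2 fold change of 0.28 ± 0.18 (SE) was 0.04 without that library, where the markers of fat cells, macrophages, neutrophils, fibroblasts, pericytes and smooth muscle, endothelial cells (184 CPM, against at most 175 CPM elsewhere) and satellite glia (3486 CPM, against at most 3191 CPM) were also highest. Markers of jugular neurons (652 CPM, against at most 542 CPM) and myelinating Schwann cells (2028 CPM, against at most 1942 CPM) were highest there too. So were those of lymphocytes (18.3 CPM, against at most 15.1 CPM). The part of any of these cells in the Nrp1 difference was not tested. Nrp2 stood at 240, 283 and 283 CPM in controls, against 209, 251 and 230 CPM in treated libraries, at -0.22 ± 0.11. Treated replicate 2 lay above control replicate 1, so the groups overlapped. The ratio of Nrp1 to Nrp2 counts within a library, which needs no scaling, was 0.223, 0.209 and 0.213 in controls, against 0.286, 0.233 and 0.401 in treated libraries. Every treated ratio exceeded every control ratio, with means of 0.215 ± 0.00730 and 0.307 ± 0.0855 (SD, n = 3), and a treated mean of 0.260 without treated replicate 3.

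**Figure D3:**
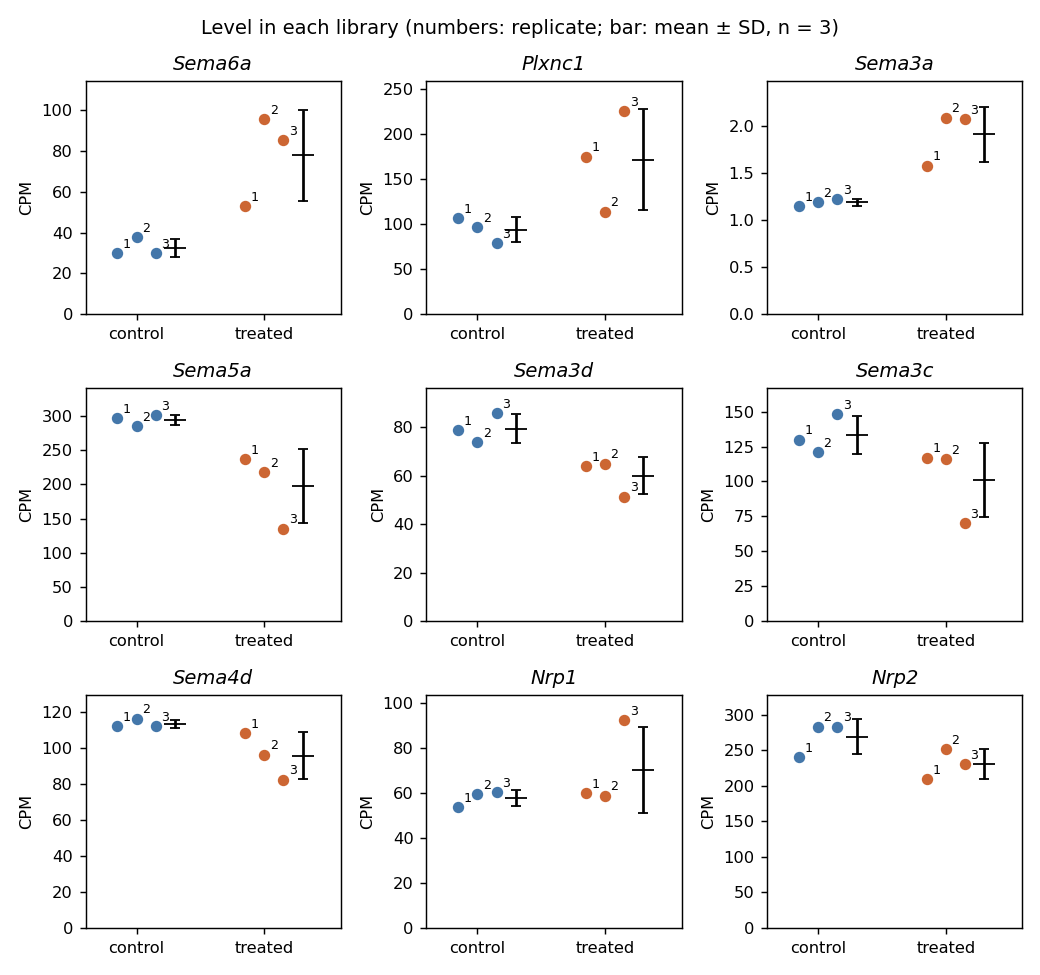
Level in each library (y axis, CPM from 0; points numbered by replicate; bars are mean with SD, n = 3) for the 7 genes whose groups did not overlap and for both neuropilins. Sema6a, Plxnc1 and Sema3a have all treated points above the controls, Sema5a, Sema3d, Sema3c and Sema4d have them below, and for Nrp1 treated replicate 3 alone stands out.

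Among the receptors, Plxnc1 had the largest log2 fold change. Plexin C1 is the receptor of the lipid-anchored Sema7a and, like it, acts in both the nervous and the immune system. The gene (ENSMUSG00000074785) lies on the minus strand of chromosome 10, 94790866 to 94944835. It stood at 107, 96.8 and 79.1 CPM in controls, against 175, 114 and 226 CPM in treated replicates 1, 2 and 3. All treated libraries were above the controls, treated replicate 2 by the smallest margin. Its log2 fold change was 0.87 ± 0.25 (SE), 1.82-fold, at an edgeR unadjusted p of 0.01 and an adjusted p of 0.660. It ran from 0.50 with sample weights to 1.08 without treated replicate 2, and the adjusted p from 0.0515 with DESeq2 to 0.995.

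Plxnc1 and the markers of jugular neurons put the treated libraries in the same order, but not the controls. Of the 7 jugular markers, 6 were tested, and all of those had a positive log2 fold change and an edgeR unadjusted p under 0.05. Such a p was found for 6.67% of all genes tested. This list too was chosen with earlier results of these data known, so its count is not an independent result. Wnt1, which was not tested, was at 0 counts in 3 libraries. The list summed to 281, 293 and 248 CPM in controls, against 542, 327 and 652 CPM in treated libraries, so control replicate 2 was highest of the controls on the list, while Plxnc1 was highest in control replicate 1. Per 100 CPM of jugular markers Plxnc1 stood at 37.9, 33.0 and 31.9 CPM in controls, against 32.3, 34.8 and 34.7 CPM in treated libraries, so relative to these markers the groups overlapped. The part of jugular neurons in the Plxnc1 difference was not tested. Sema7a, the ligand of plexin C1, stood at 18.0, 21.8 and 10.8 CPM in controls, against 19.0, 24.0 and 14.2 CPM in treated libraries, which overlapped.

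**Figure D4:**
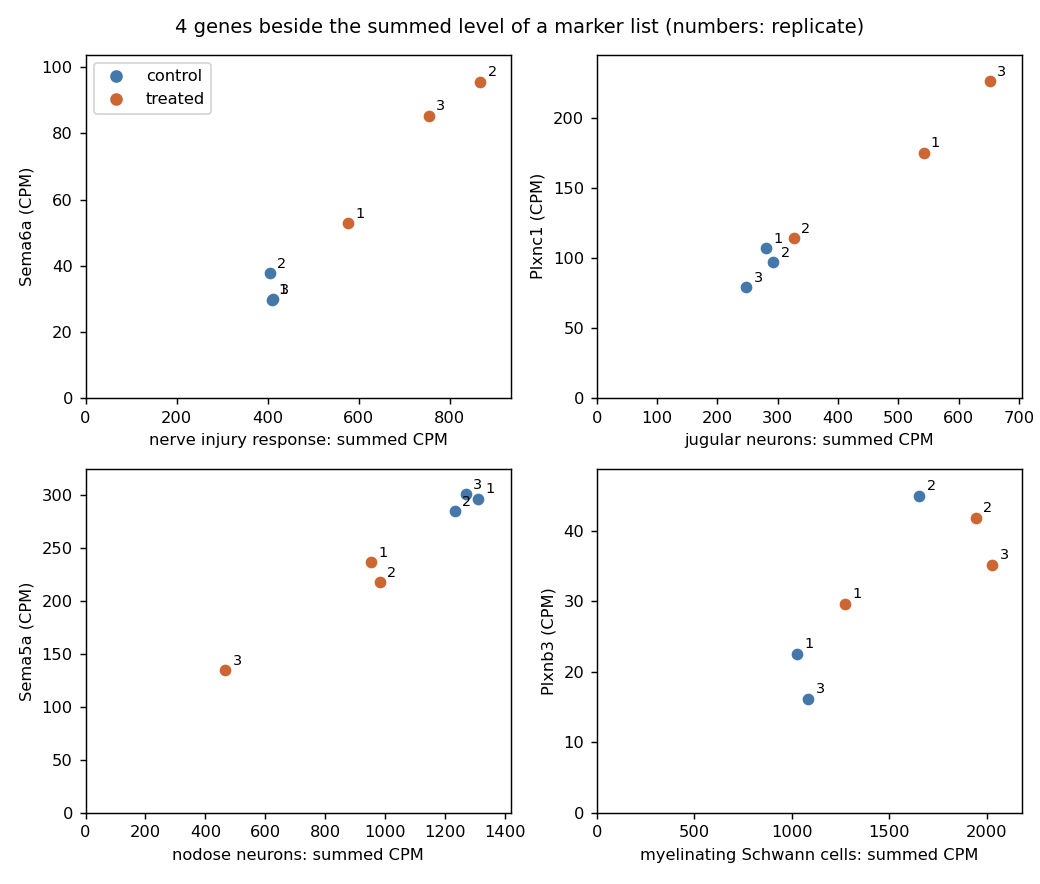
Level of 4 genes (y axes, CPM) against the summed level of a marker list (x axes, CPM) in the 6 libraries, numbered by replicate, both axes from 0. Sema6a is plotted with nerve injury genes, Plxnc1 with jugular markers, Sema5a with nodose markers and Plxnb3 with myelin genes, and the pairs were chosen after their values were seen.

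Of the B-type plexins, Plxnb3 and Plxnb1 differed more among the controls than between the group means. Plxnb3 stood at 22.6, 45.0 and 16.2 CPM in controls, against 29.7, 41.9 and 35.2 CPM in treated libraries. Plxnb1, the Sema4d receptor, stood at 24.8, 47.9 and 25.5 CPM in controls, against 32.6, 53.6 and 43.4 CPM in treated libraries. In both genes control replicate 2 was well above the other controls. Markers of myelinating Schwann cells were also highest there among the controls: all 7 had positive log2 fold changes, none was at 0, and they summed to 1028, 1654 and 1084 CPM in controls, against 1273, 1942 and 2028 CPM in treated libraries. Per 100 CPM of those markers Plxnb3 ranged from 1.49 CPM in control replicate 3 to 2.72 CPM in control replicate 2 and from 1.74 to 2.33 CPM in the treated libraries, so control replicate 2 was highest on that scale too. Plxnb1 stood between 2.35 and 2.89 CPM in the controls and between 2.14 and 2.76 CPM in the treated libraries. Sema3b showed the same high control replicate, at 56.7, 90.8 and 52.2 CPM in the controls. Per 100 CPM of the myelin markers Sema3b was at 4.82 to 5.51 CPM in the controls and at 3.18 CPM in treated replicate 3, the lowest of the 6 libraries. Without control replicate 2 the log2 fold change of Plxnb1 went from 0.40 to 0.77 and that of Plxnb3 from 0.34 to 0.87, neither past an edgeR adjusted p of 0.05. Plxnb2 was at 0.35 ± 0.18 (SE) and at 0.13 without treated replicate 3.

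The 4 A-type plexins, the signalling partners of neuropilins, lay near 0: Plxna4 at 0.03 ± 0.10, Plxna2 at 0.01 ± 0.11, Plxna1 at 0.0026 ± 0.14 and Plxna3 at -0.03 ± 0.17 (log2 fold change ± SE). The sign of each differed between alternatives. Plxna4 had 248, 254 and 268 CPM in controls, against 273, 279 and 233 CPM in treated libraries, a spread within groups larger than the difference between their means. Antisense transcript Gm26811 covers 10.7% of the exon sequence of Plxna1, and no source used here gives the strand setting of the counting. Plxnd1 had 113, 150 and 106 CPM in controls, against 158, 136 and 150 CPM in treated libraries, which overlapped, at 0.26 ± 0.14, and at 0.42 without control replicate 2 and 0.17 without control replicate 3. Its ligand Sema3e was at 28.3, 30.7 and 27.7 CPM in controls, against 31.6, 31.6 and 15.1 CPM in treated libraries. The plexin domain containing genes encode single-pass membrane proteins, known from tumour endothelium, that share a short cysteine-rich domain with plexins but are not semaphorin receptors of that family. Plxdc2 was at 0.33 ± 0.20, or 0.20 without control replicate 1, and Plxdc1, with 84 to 139 counts a library, at 0.05 ± 0.31.

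Genes that act with these receptors were read from a list of 55, of which 54 were tested. None passed an edgeR adjusted p of 0.05. At an unadjusted p under 0.05 stood 6 of them (11.1%), against 6.67% of all genes tested, 4 with higher and 2 with lower levels. The list median was 0.0065. Mical1, an oxidase that takes actin filaments apart downstream of A-type plexins, had the smallest p of the list: 54.5, 57.6 and 41.6 CPM in controls, against 71.1, 74.3 and 86.1 CPM in treated libraries, at 0.59 ± 0.14 (log2 fold change ± SE). Rras2, a GTPase of the R-Ras group on which plexins act, was at 0.90 ± 0.29, the neuropilin ligand Vegfa at 0.37 ± 0.16, and Itga1, a subunit of an integrin that binds Sema7a, at 0.47 ± 0.20. Rras2, Vegfa and Itga1 were each highest in treated replicate 3, at 28.2, 81.3 and 39.2 CPM. The other libraries had at most 15.7, 62.6 and 31.9 CPM. The lower genes were Ptk7, a pseudokinase that can join plexin complexes, at -0.43 ± 0.15, and Limk1, the kinase that switches off cofilin, at -0.35 ± 0.14. Of these 6, Mical1, Rras2 and Ptk7 had groups without overlap, and the other 3 overlapped. Partners at a larger p also had groups without overlap: Rras, Rac1, Rhod, Nrcam, Vegfb, Itgb1 and Nf1. Rhod was at a low level, from 0.608 to 0.745 CPM in controls and from 0.174 to 0.398 CPM in treated libraries. Of all genes tested, 14.7% had such groups, so these partners are named as description only.

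Of the 4 genes with an unadjusted p under 0.05, the RefSeq table of GRCm38.p6 promoters was read for Plxnc1, Sema5a and Sema3d to show the sequence in front of genes that stood higher and lower. Each line gives the 250 bases before the annotated start, 5′ to 3′ on the strand of the gene, at chr10:94944846-94945095 (minus) for Plxnc1, chr15:32244563-32244812 (plus) for Sema5a and chr5:12382916-12383165 (plus) for Sema3d. Capitals mark a GC box (GGGCGG on either strand) or a CCAAT box (CCAAT on either strand), which in Sema3d is written as its reverse.
Plxnc1: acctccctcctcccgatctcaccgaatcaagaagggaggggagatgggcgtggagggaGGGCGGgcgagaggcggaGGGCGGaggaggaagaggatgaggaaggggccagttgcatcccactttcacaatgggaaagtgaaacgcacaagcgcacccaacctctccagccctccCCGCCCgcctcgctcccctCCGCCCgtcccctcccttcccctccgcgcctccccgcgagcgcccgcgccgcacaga
Sema5a: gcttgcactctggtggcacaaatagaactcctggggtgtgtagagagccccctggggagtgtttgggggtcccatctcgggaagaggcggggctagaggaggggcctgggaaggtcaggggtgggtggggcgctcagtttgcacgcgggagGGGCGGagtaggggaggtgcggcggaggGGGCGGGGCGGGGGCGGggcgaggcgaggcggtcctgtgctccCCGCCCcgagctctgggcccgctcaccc
Sema3d: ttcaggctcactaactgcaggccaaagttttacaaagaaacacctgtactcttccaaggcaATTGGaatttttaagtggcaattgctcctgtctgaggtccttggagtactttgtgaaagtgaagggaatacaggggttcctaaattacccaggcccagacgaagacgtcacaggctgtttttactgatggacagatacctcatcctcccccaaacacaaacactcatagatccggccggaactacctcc

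Plxnc1 and Sema5a, which stood on opposite sides of their controls, both held GC boxes, 4 and 5 in number including overlapping ones, and GC shares of 68.8% and 72%. Sema3d held no GC box and 1 CCAAT box, with a GC share of 46.8%. A total of 26 of the 33 genes matched the table with 37 promoters, since some genes have several starts. Sema6a was not among the 26, so it was searched for no motif. A GC box was in 73% of these, against 54.5% of 15274 promoters of tested genes and 32.7% of all 32851 promoters in the table. The AP-1 motif TGANTCA, the sequence bound by Jun with its partners, was in 3 of the 37 (8.11%), those of Sema4c, Sema4d and Sema6b, against 4.73% for tested genes and 6.75% for all. The cyclic AMP response element TGACGTCA was in 0 of the 37, against 2.43% and 1.55%. CCAAT was in 18.9%, against 34.7% and 33.8%. Both strands were searched, the motifs do not contain one another, and a match describes letters in this window alone.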

How the data were processed

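The authors deposited 1 file of raw exonic read counts per gene for each of the 6 libraries. Per the submitters' processing notes, bcl2fastq 2.20, STAR 2.7.7a, DESeq2 and edgeR were used with build mm10. The sources used here do not give the counting program, the annotation release or the strand setting. Per the labels' protocols, about 6 ng of total RNA entered a strand-specific kit for small inputs and reads were 100 bp. Gene positions and exon lengths (all exons merged) came from GENCODE M21 (GRCm38, the same build as mm10), to which 32663 of 32719 genes matched.

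Counts were fitted over all genes with edgeR 4.0.16 in R 4.3.3: filterByExpr with a minimum count of 10, TMM scaling (trimmed mean of M values), and a robust quasi-likelihood F test of treated against control, with Benjamini-Hochberg adjustment over all genes tested and a threshold of 0.05. The SE was derived from the log2 fold change and F (size over root F). CPM are counts over the TMM-scaled library size. Permutation tests were exact and two-sided on log2 CPM with a prior count of 2. The floor for a count of 0 is 3 counts.

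Members were taken by symbol, and values in every library are given for those with an unadjusted p under 0.05, groups that do not overlap, a high length-scaled level, or as neuropilins; the rest are given by log2 fold change, and some of them by library where they are ligand or receptor of one so described or vary within a group, chosen after their values were seen. Partner genes are named at an unadjusted p under 0.05. The gene family and all lists were chosen with earlier results of these data known, so no adjustment over a list is given. Ratios of a gene to a marker list were added after the values were seen. Alternatives were 3 other scalings, other filters, limma-voom 3.58.1 with and without sample weights, DESeq2 1.42.0, a replicate block, no robust shrinkage, small RNA and haemoglobin left out, an adjusted p of 0.1, another length, and each library left out. The fit was tested on simulated data.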

Additional observations from a re-analysis of the deposited data

How the results depend on the processing

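The number of genes past an edgeR adjusted p of 0.05 was 0 and became 26 without a filter, 89 with DESeq2, 8 with sample weights and 0 to 9 with 1 library left out. The number of the 33 genes at an unadjusted p under 0.05 was 4, against 6.67% of all genes tested, 7 without a filter (5.62% of all), 12 with sample weights (11.6%), and 4 to 11 with 1 library left out, the most when control replicate 2 (11, against 6.25%) or treated replicate 1 (10, against 10.8%) was out. The number with groups that do not overlap was 7, against 14.7% of all genes tested, and ran from 8 to 16 when 1 library was left out, where fewer libraries make overlap less likely and the share of all genes was 20.6% to 30.7%. The most were without control replicate 2 (16, against 27.0%) and treated replicate 1 (13, against 30.7%). The median of the 33 ran from 0.03 to 0.29. Of the 33 genes, 21 kept their direction in all alternatives that could be fitted, among them Sema6a, Plxnc1, Sema3d and Sema5a. The other 12 had a change of sign. Sema6a alone passed an adjusted p of 0.05 in any alternative, in DESeq2 and without treated replicate 1.

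With the replicate block, that is the replicate number in the model, 1 gene passed over all genes and 13 of the 33 had an unadjusted p under 0.05, against 9.43% of all genes in that fit. Deviations from the group means of same-numbered libraries correlated at 0.01, 0.56 and 0.49 for numbers 1, 2 and 3 across 12197 genes. Those of numbers 2 and 3 were the highest of any control with any treated library. Control replicate 1 correlated best with treated replicate 3 (0.13). These values do not settle whether the samples were paired. The labels do not say that the numbers pair samples, so the main fit has no block.

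Some log2 fold changes changed sign. With sample weights Plxdc1 was at -0.11, Plxna3 at 0.13, Sema3e at 0.08 and Sema6d at 0.07. Plxna1 was at -0.002 with DESeq2 size factors, -0.0091 with the upper quartile, -0.0075 with no filter, -0.0016 with DESeq2 and -0.00021 with limma-voom, and Sema6d was at 0.0096 with library size alone and 0.0027 with the 5 CPM filter. With the replicate block Plxna1 was at -0.0056 and Sema4f at -0.00027. With 1 library left out the values ran from -0.18 to 0.24 for Plxdc1, -0.15 to 0.10 for Plxna1, -0.10 to 0.09 for Plxna2, -0.18 to 0.12 for Plxna3, -0.03 to 0.10 for Plxna4, -0.08 to 0.49 for Sema3b, -0.30 to 0.13 for Sema3e, -0.02 to 0.34 for Sema3f, -0.18 to 0.06 for Sema4b, -0.09 to 0.18 for Sema4f, -0.07 to 0.08 for Sema6d and -0.06 to 0.40 for Sema7a. The cause was not tested. Depth limits Sema3a and Sema5b, with at most 60 and 44 counts a library.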
